A study of Mus musculus with 3 samples.

Results

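The strongest sites of Ad4BP/SF-1 that were bound with and without cAMP were 587 regions of the mouse genome. They were selected on the authors' peak scores. A vehicle peak was taken when a peak of the cAMP culture covered at least 1 of its bases, and when it and the most overlapping such peak both scored at least 100, on chromosomes 1 to 19 and X. Of the 5721 vehicle peaks, 2167 (37.9%) overlapped a cAMP peak, and the 587 strong shared peaks were 10.3% of the vehicle list. Their 587 cAMP partners were 14.6% of the 4024 cAMP peaks on these chromosomes. The other 1580 overlapping vehicle peaks are called other shared peaks. The single-list peaks set beside them were the 488 vehicle peaks and the 106 cAMP peaks that had a score of at least 100 and no overlap.

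The cells were primary Leydig cells, which make the testicular androgens, from 9-week-old male ICR mice. Testes of several animals were pooled, and the cells were purified on a density gradient and cultured with vehicle or cAMP. Chromatin of each culture was immunoprecipitated with an antibody to Ad4BP/SF-1 and sequenced as 1 library per condition, and an input DNA sample was not used here. No difference between the conditions could therefore be set against replicate error, and no test was made. The agent, dose and duration of the cAMP treatment are not given in the sources used here. The score is the authors' value from the peak caller MACS, read here as 10 times the negative log10 of a peak's p-value. The lowest score in either list was 50, which could not be matched with the p-value threshold stated for the peak calling. The score rises with depth, the lists hold no read numbers, and the depth of each library is unknown. A difference between a vehicle score and a cAMP score therefore cannot be told apart from a difference in depth.

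Ad4BP/SF-1, also called NR5A1, is an orphan nuclear receptor of the gonads and the adrenal cortex and binds DNA as a monomer. Its site joins the receptor family's AGGTCA element to a short stretch on the 5′ side that a part of the protein next to the zinc fingers reads. The factor is known as the master regulator of the enzymes that make steroids from cholesterol. In Leydig cells luteinizing hormone raises cAMP, which is the signal that drives steroid production. The question addressed here is what the sites called in both cultures have in common in sequence, position and nearby genes.

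Sequence was not used to choose the regions. The site searched for was TCAAGGTC, in which the first and the seventh base could each also be C, on both strands. It is called the Ad4 consensus here. The windows below come from the strong shared peaks with the lowest sums of ranks in both lists and from peaks at metabolic and clock genes, so that the site can be read in its surroundings. Capitals mark each copy of the consensus, and every window is written 5′ to 3′ on the strand of the copy nearest to the peak's centre, in GRCm38 (mm10).
Atp5b (chr10:128083471-128083530, minus strand): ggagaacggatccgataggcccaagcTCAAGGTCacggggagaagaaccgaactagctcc
Nrsn2 (chr2:152363654-152363713, plus strand): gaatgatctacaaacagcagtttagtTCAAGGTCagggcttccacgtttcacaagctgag
Slc25a30 (chr14:75789433-75789492, minus strand): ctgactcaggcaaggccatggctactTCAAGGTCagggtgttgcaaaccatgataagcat
Inpp5a (chr7:139364251-139364310, plus strand): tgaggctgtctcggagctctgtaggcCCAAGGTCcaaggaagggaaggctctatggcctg
Jund (chr8:70696600-70696659, plus strand): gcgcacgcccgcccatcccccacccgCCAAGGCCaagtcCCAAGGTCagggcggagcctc
Gm15737 (chr6:92884653-92884712, minus strand): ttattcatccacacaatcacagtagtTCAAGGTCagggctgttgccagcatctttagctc
Boc (chr16:44494035-44494094, plus strand): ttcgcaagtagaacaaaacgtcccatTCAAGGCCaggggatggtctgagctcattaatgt
Aldoa (chr7:126798322-126798381, plus strand): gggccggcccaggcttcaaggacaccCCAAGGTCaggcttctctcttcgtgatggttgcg
Acacb (chr5:114175645-114175704, plus strand): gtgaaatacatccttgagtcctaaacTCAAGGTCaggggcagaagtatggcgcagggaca
Per1 (chr11:69092471-69092530, minus strand): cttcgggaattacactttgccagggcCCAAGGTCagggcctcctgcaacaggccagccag
Fdft1 (chr14:63149784-63149843, minus strand): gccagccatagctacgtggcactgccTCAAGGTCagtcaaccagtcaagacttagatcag

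The plainest of these was the window near *Atp5b*, with a TCAAGGTC followed by A. The *Jund* window had CCAAGGCC and CCAAGGTC close together on the same strand. In every window but that of *Inpp5a*, the base after the last copy was A. The same letter at this place was found in most copies of the whole set, as given below.

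Scores and ranks describe how the regions were chosen and are given without a test. Vehicle scores had a median of 172, quartiles of 131 and 239 and a maximum of 905. Scores after cAMP had a median of 145, quartiles of 117 and 192 and a maximum of 803. The strong shared peaks held the top of both lists, since all 10 highest-scoring vehicle peaks and all 10 highest-scoring cAMP peaks were among them, and 3 regions were in both sets of 10. Of the 100 highest-scoring peaks, 87 for vehicle and 92 for cAMP were strong shared peaks, and 42 were in both sets of 100. The highest 10% of both lists held 213 of the 587. Pearson's r of the log10 scores was 0.51 and Spearman's rho was 0.38 over the 587 regions, against 0.54 and 0.44 over all 2167 shared peaks, as a description of peaks that come from the same pair of libraries. The lower bound on both scores narrows their range, which can lower such a correlation, and its part here was not tested. Just inside the threshold were peaks in introns of *Efhd1* (scores 100.08 in vehicle and 102.65 in cAMP), *Stat5b* (100.12 and 116.65) and *Rbfox2* (100.2 and 125.38), and just outside were peaks near *Snrpd1* (196.29 and 99.73), *Rpl21* (99.59 and 107.02) and *Bard1* (137.01 and 99.43).

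**Figure D1:**
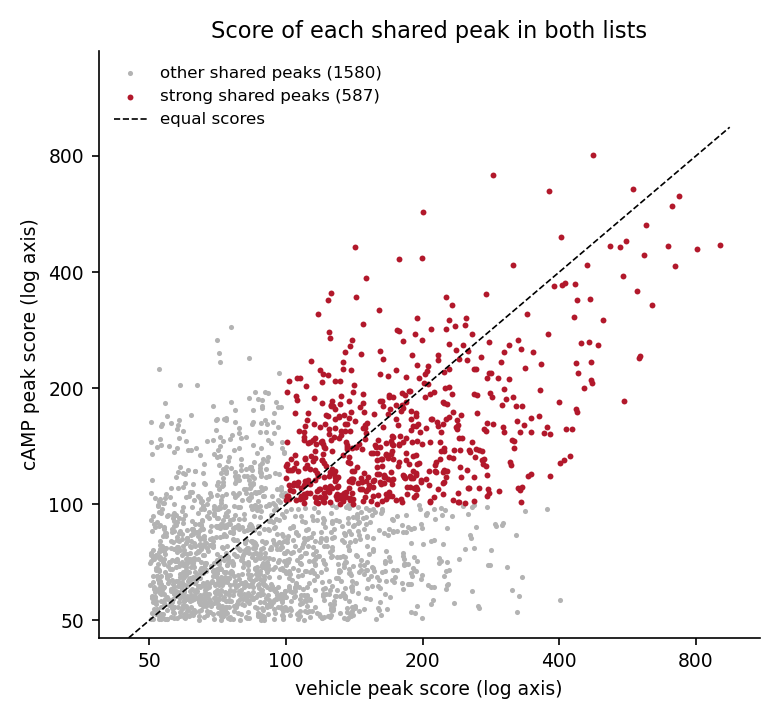
The score of each of the 2167 shared peaks in the vehicle list (horizontal log axis) and in the cAMP list (vertical log axis), with strong shared peaks in red, other shared peaks in grey and a dashed line at equal scores. The red points fill the corner above 100 in both lists and scatter on either side of the line, from a cAMP score 0.307 times to 3.28 times the vehicle score.

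The peak at *Atp5b*, which encodes the catalytic beta subunit of the mitochondrial ATP synthase, had the lowest sum of ranks. It lay in intron 1 at chr10:128083108-128083961, 261 bp from the transcription start site (TSS), with a score of 733 in vehicle (rank 3) and 631 in cAMP (rank 5). The highest vehicle score, 905, belonged to a region 12.9 kb from the TSS of *Nrsn2*, whose cAMP score was 469 (rank 11). The highest cAMP score, 803, belonged to a region in intron 16 of *Adamts9*, an extracellular protease gene, with *Gm15737* as the nearest TSS, and its vehicle score was 476 (rank 21). These 3 regions were thus near the top of each list but led at most 1 of them. A peak 2.52 kb upstream of *Slc25a30*, a mitochondrial carrier gene, ranked 8 in both lists with scores of 621 and 530. The promoter peak of *Pgk1*, the glycolytic phosphoglycerate kinase, ranked 13 and 3 with scores of 583 and 658. A peak 2.34 kb upstream of *Jund*, an AP-1 subunit, had scores of 693 and 468, and a peak in intron 11 of *Clptm1*, whose nearest TSS was that of the NF-kB subunit *Relb*, had 719 and 415.

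The other regions among the 15 with the lowest rank sums were near *Inpp5a*, an inositol phosphatase gene (805 and 458), in intron 8 of *Boc*, a hedgehog co-receptor gene (560 and 480), in intron 2 of *Chd2*, a chromatin remodeller gene (613 and 443), near the aquaporin gene *Aqp11* (518 and 466), near the AMP deaminase gene *Ampd3* (545 and 464), and at the promoters of *Cox8a*, a cytochrome c oxidase subunit gene (554 and 390), and *H2afy*, which encodes the histone macroH2A1 (593 and 357). The remaining region lay on chromosome 17 in the noncoding gene *Gm26917*, with *Esp38* as the nearest protein-coding TSS at 106 kb, and had scores of 709 and 592. It was 4031 bp wide against a median width of 624 bp, and it held 1 copy of the consensus, 1281 bp from its centre. Regions of artefactual signal were not filtered out and the input DNA was not used, so whether this peak marks binding was not tested.

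Over all 587 regions, 383 had the higher score in vehicle and 204 in cAMP, and the median ratio of cAMP to vehicle score was 0.857. A cAMP score at least 1.5 times the vehicle score was found in 46, where 11.3% of all shared peaks passed this ratio, and a vehicle score at least 1.5 times the cAMP score in 157, where 27.9% of all shared peaks did. The rule used both scores, so nothing is read from these counts. The overlapping peaks lined up closely, with a median overlap of 78.5% of the joint length and centres a median of 45 bp apart, which was 46 bp in the other shared peaks.

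The Ad4 consensus was present in 541 of the 587 strong shared peaks, or 92.2% (95% exact Clopper-Pearson interval 89.7% to 94.2%). All such intervals cover counting error only. It was present in 15.9% (13.9% to 18.1%) of windows of the same width placed 2 kb to each side. The share was 87.6% (85.9% to 89.2%) in the other shared peaks, 81.6% (77.8% to 84.9%) in the single-list vehicle peaks and 88.7% (81.1% to 94.0%) in the single-list cAMP peaks. Peak widths differed beside these shares, with medians of 624, 538, 594 and 512 bp. In windows of equal length, the central 300 bp, the shares were 89.1% (86.3% to 91.5%) in the strong shared peaks and 84.9% (83.1% to 86.7%) in the other shared peaks, and the intervals overlapped. They were 75.6% (71.6% to 79.4%) and 83.0% in the single-list vehicle and cAMP peaks. The intervals of the strong shared peaks and the single-list vehicle peaks did not overlap, but these groups were not matched on score, since the single-list vehicle peaks had a median score of 121.

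With the strong shared peaks split into 4 groups of like size in order of rank sum, the share with the consensus was 95.9%, 89.8%, 89.7% and 93.2%, from the best ranks down. The intervals of the first and last groups overlapped (91.3% to 98.5% and 87.8% to 96.7%).

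Copies were stacked at the peaks' centres. Of 818 copies, 424 (51.8%) were within 50 bp of the centre and 636 (77.8%) within 100 bp, and the copy nearest to the centre was a median of 34 bp from it. TCAAGGTC was the most common form, with 385 copies or 47.1%, against 23.9% of the 205 copies in the windows to each side. TCAAGGCC made up 28.7%, CCAAGGTC 13.7% and CCAAGGCC 10.5%, against 29.8%, 22.9% and 23.4%. The base after the copy was A in 84.8% and the base before it was T in 53.5%. Among all 8-base words in the central 100 bp, the most widespread was CAAGGTCA, found in 234 peaks (39.9%) and in 1.28% of the windows to each side. GTTCAAGG was found in 145 peaks (24.7%) against 0.767%. The words and flanking bases were not split by whether the copy lay in a repeat, and many copies did, as given below.

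**Figure D2:**
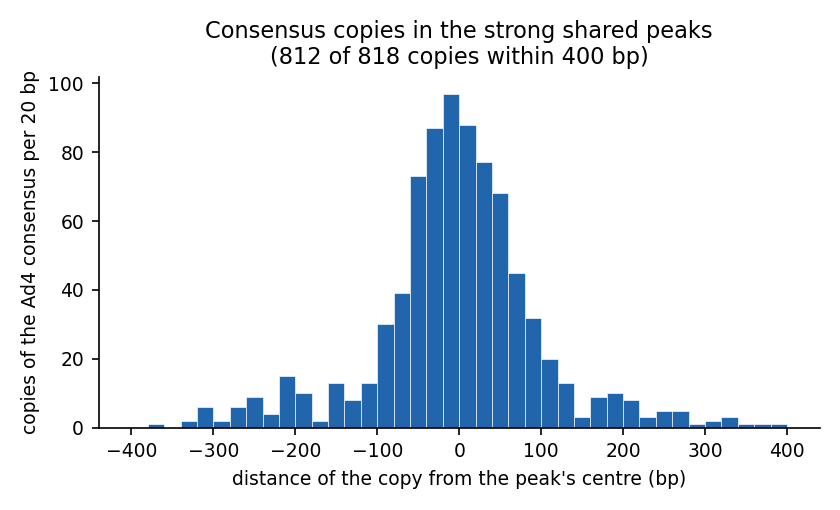
Distance of each consensus copy from the centre of its strong shared peak (bp, 20 bp bins), with the number of copies on the vertical axis, for the 812 of 818 copies within 400 bp. The copies form a single mound around the centre, where 51.8% lie within 50 bp.

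Many strong shared peaks held several copies. A single copy was present in 331, 2 copies in 170, 3 in 29 and 4 or more in 11, so that 35.8% (31.9% to 39.8%) held at least 2, against 22.3% (20.3% to 24.5%) of the other shared peaks, 25.2% of the single-list vehicle peaks and 18.9% of the single-list cAMP peaks. The intervals of the strong and the other shared peaks did not overlap, with the difference in width given above beside them. The most copies were found near *Pdgfa*, a growth factor gene that acts on Leydig precursors (11 copies, scores 146 and 179), in intron 2 of *Capn2*, a calpain protease gene (9 copies, scores 413 and 374), in intron 14 of *Tbc1d1*, a Rab GTPase regulator gene (6 copies, 196 and 212), in intron 1 of *Fam78a* (5 copies, 184 and 214) and near *Castor1*, an arginine sensor gene (5 copies, 188 and 117). The arrays of *Capn2*, *Tbc1d1* and *Pdgfa* are shown because the site recurs in them at a nearly constant distance or in irregular steps. The *Pdgfa* window holds 7 of its 11 copies.
Capn2 (chr1:182500964-182501211, plus strand): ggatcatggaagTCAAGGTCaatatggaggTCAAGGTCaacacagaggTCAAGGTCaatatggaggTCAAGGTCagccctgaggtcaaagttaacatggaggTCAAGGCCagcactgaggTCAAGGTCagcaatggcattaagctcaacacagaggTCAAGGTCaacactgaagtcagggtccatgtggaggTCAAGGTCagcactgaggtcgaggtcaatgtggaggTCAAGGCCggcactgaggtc
Tbc1d1 (chr5:64296985-64297115, minus strand): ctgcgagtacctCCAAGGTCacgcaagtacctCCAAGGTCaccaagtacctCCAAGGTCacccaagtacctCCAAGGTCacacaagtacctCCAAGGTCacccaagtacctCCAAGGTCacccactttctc
Pdgfa (chr5:138974646-138974919, plus strand): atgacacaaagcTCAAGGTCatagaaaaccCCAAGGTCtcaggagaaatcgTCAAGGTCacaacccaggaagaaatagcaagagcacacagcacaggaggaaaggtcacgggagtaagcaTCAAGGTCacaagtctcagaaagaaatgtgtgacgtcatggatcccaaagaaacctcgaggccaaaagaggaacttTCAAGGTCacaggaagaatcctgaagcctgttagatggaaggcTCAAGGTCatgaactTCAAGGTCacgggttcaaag

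All copies shown in the 3 arrays point the same way. In the whole set, 194 of 277 pairs of neighbouring copies were on the same strand, with 48 facing each other and 35 back to back. Same-strand spacing, from the start of a copy to the start of the next, had peaks at 29 bp (21 pairs in 21 regions) and at 6 bp (18 pairs in 13 regions). At 6 bp the next copy begins inside the previous one.

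Of the 21 pairs 29 bp apart, 14 (66.7%, 43.0% to 85.4%) had both copies in repeat-masked sequence, which the genome release writes in lower case. The windows below were picked by hand and are from regions near *Notch4*, *Gm6793*, *Uqcc2*, *Fez2* and *Herpud2*. They are printed from 12 bases before the first copy to 12 after the second. All of them are largely repeat-masked, so the frame they share need not hold for the other pairs. In all 5 the letters agt stand directly before each copy.
Notch4 (chr17:34562757-34562817, plus strand): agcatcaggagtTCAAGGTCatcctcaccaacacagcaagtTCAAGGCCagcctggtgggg
Gm6793 (chr8:112061685-112061745, minus strand): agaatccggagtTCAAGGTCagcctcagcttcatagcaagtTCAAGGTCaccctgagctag
Uqcc2 (chr17:27145588-27145648, plus strand): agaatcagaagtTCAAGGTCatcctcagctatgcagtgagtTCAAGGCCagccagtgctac
Fez2 (chr17:78416078-78416138, plus strand): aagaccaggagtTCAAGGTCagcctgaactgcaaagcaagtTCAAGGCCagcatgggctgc
Herpud2 (chr9:25176301-25176361, minus strand): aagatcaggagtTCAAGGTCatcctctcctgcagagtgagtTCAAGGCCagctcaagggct

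The 5 windows were from 88.5% to 100% repeat-masked. Between the copies stood stretches such as the one that begins atcctc in those of *Notch4*, *Uqcc2* and *Herpud2*. Mouse short interspersed elements of the B1 class are known to carry an internal tandem duplication, but the repeat class of these windows is not annotated in the files used here. Across all strong shared peaks, 18.8% of the bases were repeat-masked and 334 of the 818 consensus copies were, or 40.8% (37.4% to 44.3%). In the windows to each side, 25.2% of the bases and 34.1% (27.7% to 41.1%) of the copies were, and the intervals for copies overlapped. Of the 541 regions with the consensus, 258 (47.7%) had at least 1 copy in repeat-masked sequence, and in 196 (36.2%) every copy was. The repeat-masked copies were nearly all of the forms that start with T, with 52.4% TCAAGGTC and 40.7% TCAAGGCC, while copies outside repeats were 43.4% TCAAGGTC, 20.5% TCAAGGCC, 20.7% CCAAGGTC and 15.5% CCAAGGCC.

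The other shared peaks had similar values. In them 40.2% (37.9% to 42.5%) of the copies were repeat-masked and 34 same-strand pairs were 29 bp apart, in 2.15% (1.49% to 2.99%) of regions against 3.58% (2.23% to 5.42%) of the strong ones. Of the 1174 windows to each side of the strong shared peaks, 1 had such a pair. The share of repeat-masked copies was 28.7% (24.9% to 32.7%) in the single-list vehicle peaks and 40.2% (31.4% to 49.4%) in the single-list cAMP peaks. The median scores were 163 in vehicle and 142 in cAMP where every copy was repeat-masked, and 181 and 146 where none was. The authors kept only reads with 1 position in the genome, and the part of this choice in the repeat shares was not tested.

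**Figure D3:**
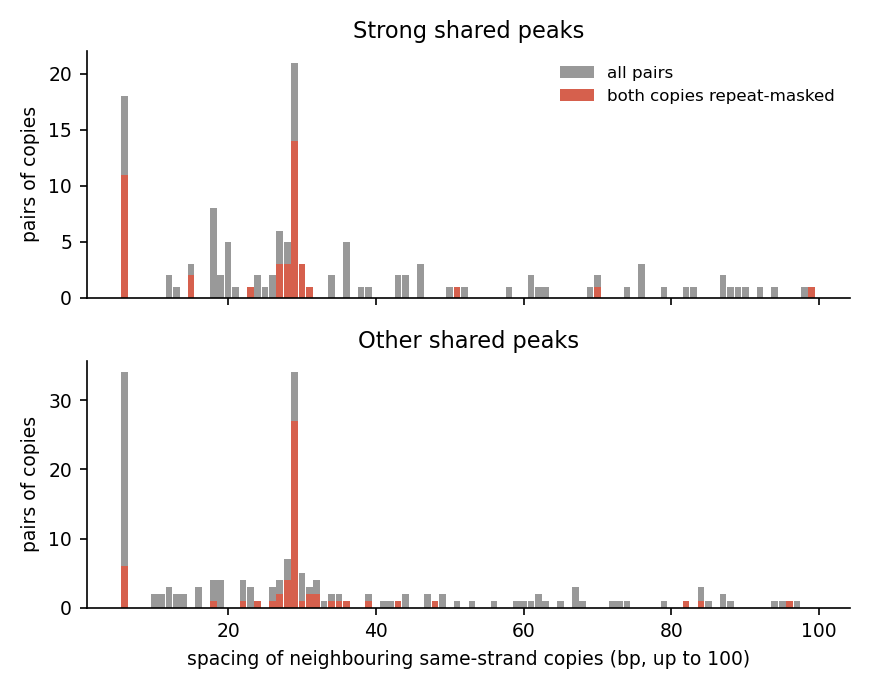
Number of neighbouring same-strand consensus copies (vertical axis) at each spacing up to 100 bp (horizontal axis), in strong shared peaks (upper panel) and other shared peaks (lower panel), with grey bars for all pairs and red bars for pairs with both copies in repeat-masked sequence. Bars stand out at 6 bp and 29 bp in both panels, with 21 pairs at 29 bp in the strong shared peaks, 14 of them red.

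The 46 strong shared peaks without the consensus included some of the highest scores. The 8 with the lowest rank sums were at the promoters of *Pgk1* (583 and 658), *Tfrc*, the transferrin receptor gene (438 and 338), and *Enpp4* (435 and 176), near *Slc9a8*, a sodium and proton exchanger gene (438 and 173), in the 3′ UTR of the sphingosine phosphate receptor gene *S1pr2* with *Dnmt1* as the nearest TSS (229 and 260), in intron 4 of *Tmem159* (229 and 168), near *BC005537* (215 and 164) and near *Lpp* (266 and 138). Scores of the 46 were in the same range as those of the others, with medians of 162 in vehicle and 142 in cAMP against 175 and 145. Of the 46, 9 held the shorter CAAGGTC or CAAGGCC. All 46 held 8 bases with 1 mismatch to the consensus, as 81.5% of the windows to each side did. At promoters were 8 of them, or 17.4%. The windows of *Pgk1* and *Tfrc* show, in capitals, the 8 bases nearest to the centre that differ from the consensus at 1 position.
Pgk1 (chrX:106186999-106187058, minus strand): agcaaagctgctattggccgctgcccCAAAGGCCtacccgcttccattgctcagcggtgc
Tfrc (chr16:32608775-32608834, minus strand): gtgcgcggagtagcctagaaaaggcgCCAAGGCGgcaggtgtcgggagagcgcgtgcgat

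The strong shared peak near *Cyp11a1* was among those with only the shorter form. *Cyp11a1* encodes the side-chain cleavage enzyme, the first and rate-limiting enzyme step of steroid synthesis, and the core is in capitals.
Cyp11a1 (chr9:58037002-58037060, minus strand): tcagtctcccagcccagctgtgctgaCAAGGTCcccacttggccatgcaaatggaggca

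The sites of other factors were counted in the central 300 bp of each strong shared peak and in 300 bp windows 2 kb to each side, on both strands. The AP-1 site TGANTCA, bound by Jun and Fos proteins, was present in 19.3% (16.1% to 22.7%) of the peaks and 8.52% (6.98% to 10.3%) of the side windows. In the 46 peaks without the consensus the AP-1 share was 30.4% (17.7% to 45.8%), against 6.52% (2.43% to 13.7%) in their side windows. The C/EBP site TTGCNNAA was present in 18.1% (15% to 21.4%) against 10.6% (8.94% to 12.6%). Both were as frequent in the other shared peaks, at 18% for AP-1 and 17.8% for C/EBP. The GC box GGGCGG, bound by Sp1 and its relatives, was present in 26% (16.6% to 37.2%) of the promoter peaks against 5.19% of their side windows, and in 5.88% of the peaks elsewhere against 6.08%. The homeobox site TAATTA was rarer in the peaks, at 3.75% (2.36% to 5.62%) against 7.58% (6.13% to 9.25%). The peaks were slightly richer in GC, with medians of 49.0% and 46.2%, which was not corrected for.

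For the GATA, TEAD, SREBP and cAMP response sites the intervals in peaks and side windows overlapped. The GATA site AGATAA, bound by the gonadal factors GATA4 and GATA6, was present in 15.7% against 13.9%. The TEAD site GGAATG was present in 17.5% against 13.8% and the SREBP site in 2.21% against 0.937%. The cAMP response element TGACGTCA was present in 5 peaks, 0.852% (0.277% to 1.98%), against 0.426% (0.138% to 0.991%). The nuclear receptor element AGGTCA was present in 74.3% against 21%, but it overlaps the Ad4 consensus wherever TCAAGGTC or CCAAGGTC is followed by A. The further motifs in the plot of motif shares were the CCAAT box, the SOX site ACAAAG, the RUNX site TGTGGT, the MEIS/PBX site TGACAG, the E box CACGTG, the ETS site CCGGAAG, the NR4A element AAAGGTCA, the CTCF core CCACNAGG and the NF-kB site, and the steroid receptor and NFI palindromes. The SREBP site was TCACNCCAC. The NR4A element contains AGGTCA, which is named there as the receptors' element. A match shows only that the letters are present.

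**Figure D4:**
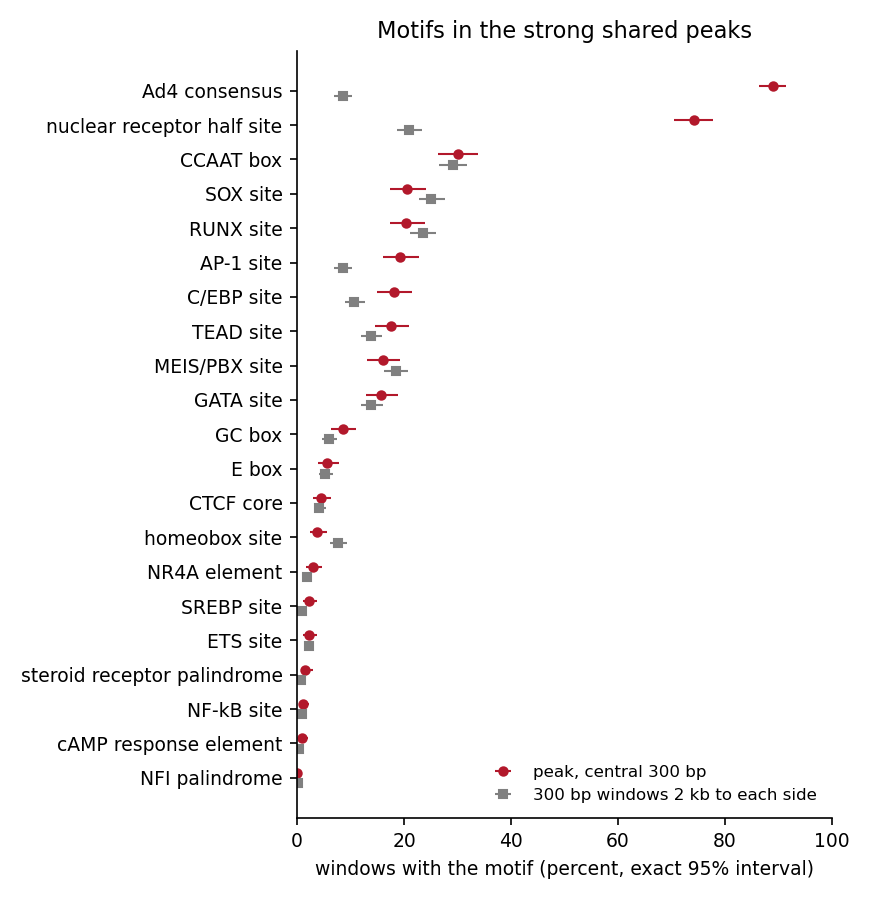
Share of windows (percent, horizontal axis) with each motif in the central 300 bp of the 587 strong shared peaks (red circles) and in 300 bp windows 2 kb to each side (grey squares), with exact 95% intervals as bars. The Ad4 consensus stands at 89.1% against 8.52% and the AP-1 site at 19.3% against 8.52%, while most other motifs have overlapping bars.

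Most strong shared peaks lay away from promoters. The TSS is here the nearest start of any annotated protein-coding transcript, which can lie inside a gene. The centre was within 1 kb of it in 77, or 13.1% (10.5% to 16.1%), and these are called promoter peaks. The share was 11.5% (9.93% to 13.1%) in the other shared peaks, 11.9% (9.15% to 15.1%) in the single-list vehicle peaks and 1.89% in the single-list cAMP peaks, where it was 2 of 106. The median distance was 11199 bp, and 19.4% lay between 1 and 5 kb, 33.9% between 10 and 50 kb and 8.69% beyond 100 kb. By the annotation at the centre, 324 (55.2%) were in an intron, 192 (32.7%) between genes, 46 in noncoding genes, 11 in a 5′ UTR, 8 in a 3′ UTR and 6 in a coding exon. Of 320 intronic regions whose intron could be numbered, 137 (42.8%) were in intron 1 and 57 in intron 2. The consensus was present in 95.5% of the regions in introns beyond promoters, 91.0% between genes, 89.6% at promoters and 83.7% in noncoding genes. Of the 77 promoter peaks, 30 had a ratio of observed to expected CpG above 0.6, a usual mark of CpG islands, and 11 of the other 510 did.

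The strong shared peaks were spread thinly. The median distance to the next was 764 kb, 72 had another within 50 kb, 22 within 10 kb, and the closest pair was 1469 bp apart. Autosomes carried from 1.32 to 4.01 per 10 Mb, the most on chromosome 11. Chromosome X carried 2, or 0.117 per 10 Mb, and these were 5.88% of its 34 vehicle peaks. The pair on X were the *Pgk1* promoter peak and a peak near *Gdpd2* (124 and 118).

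Within 10 kb of a gene body, 467 of the 587 regions had a protein-coding gene and 120 had none. The genes reached were 585 of 21728, or 2.69% (2.48% to 2.92%), and each list below is read against this background. The lists held 346 genes in all, and 27 of them (7.8%) had a strong shared peak within 10 kb. The lists were drawn with earlier results of these data known, so their shares are not free of that choice. Genes differ in length, and longer genes are reached more often. The median gene body was 17.4 kb over all protein-coding genes and from 8.94 to 93.1 kb in the lists. No list was tested, and the counts say nothing on whether a nearby gene is regulated.

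Steroid synthesis was represented by 2 of 19 genes (10.5%, exact interval 1.3% to 33.1%). The region near *Cyp11a1* lay at chr9:58036825-58037366, in intron 11 of its neighbour *Ccdc33* beyond the 3′ end of *Cyp11a1*, 19.7 kb downstream of an internal TSS of that gene. Its score was 124 in vehicle (rank 985) and 338 in cAMP (rank 35), a wide difference in standing between the lists. The peak of *Por*, which encodes the reductase that passes electrons to microsomal P450 enzymes, was in intron 1 and scored 180 and 102. Of the 7 Leydig cell markers *Cyp11a1* alone had a strong shared peak, and none of the markers of Sertoli (7), germ (7), macrophage (6), peritubular (4) or endothelial (5) cells had one. Peaks near marker genes do not measure their expression, and the purity of the cells cannot be read from them.

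Cholesterol synthesis was represented by 1 of 20 genes (5.0%, exact interval 0.127% to 24.9%). This was *Fdft1*, the squalene synthase gene, with a peak in intron 9 that scored 148 and 102, and its site is shown above. Among genes of sterol sensing and lipoprotein uptake, 2 of 18 had a strong shared peak (11.1%, 1.38% to 34.7%). These were *Scap*, the escort protein of the sterol sensing machinery (intron 1, 190 and 145), and *Lrp1*, a lipoprotein receptor gene (a coding exon without the consensus, 123 and 170). None of the 15 genes of cholesteryl ester and lipid droplet metabolism (exact interval up to 21.8%) and none of the 28 genes of NADPH supply and redox defence (up to 12.3%) had one. All these intervals include the background of 2.69%. The count of 0 depends on how the list was drawn, since *Me1*, a source of NADPH, was counted with acetyl-CoA supply, and *Nadk* (132 and 191) and *H6pd* (107.72 and 110.11), which also act in NADPH supply and are named here after their values were seen, were not on the list but had a strong shared peak within 10 kb.

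In glycolysis the count was 4 of 24 (16.7%, exact interval 4.74% to 37.4%). The promoter peak of *Pgk1* was the strongest, followed by that of *Aldoa*, the aldolase gene, in intron 1 and 0.61 kb from an internal TSS (433 and 371). Weaker peaks were 5.73 kb upstream of *Pfkl*, the liver phosphofructokinase gene (148 and 193), and in intron 7 of *Ldha*, the lactate dehydrogenase gene (121 and 141). In acetyl-CoA supply and fatty acid synthesis it was 5 of 20 (25%, 8.66% to 49.1%). *Acacb*, the mitochondrial isoform of acetyl-CoA carboxylase, had a pair of peaks inside its annotated intron 2. They lay 0.21 kb (390 and 367) and 2.73 kb (189 and 156) upstream of an internal TSS of the gene, and the second held no consensus. *Mpc1*, a subunit of the mitochondrial pyruvate carrier, had 3 copies of the consensus in a promoter peak 0.04 kb from the TSS (470 and 210). *Got1*, the cytosolic aspartate aminotransferase gene, had a promoter peak 1726 bp wide with 4 copies (327 and 154). The others were *Elovl5*, a fatty acid elongase gene (intron 1, 224 and 200), and *Me1*, the malic enzyme gene (intron 1, 178 and 281).

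Lists of regulators were counted in the same way. The exact intervals of all but the AP-1 and NF-kB list included the background of 2.69%. Of 39 nuclear receptor genes only *Rora* had a strong shared peak (intron 1, 137 and 139), close to the background share. Of 32 gonadal and Leydig transcription factors 3 had one, among them *Cebpa*, the C/EBP alpha gene (130 and 111). In cAMP signalling the count was 2 of 43, with *Adcy7*, an adenylyl cyclase gene (183 and 117), and *Akap1*, the mitochondrial anchor of protein kinase A (110 and 160). Of 30 Leydig receptors and growth factors 3 had one, namely *Pdgfa*, *Tgfbr3*, the inhibin co-receptor betaglycan (170 and 146), and *Inha*, the inhibin alpha subunit (161 and 185). Of 16 AP-1 and NF-kB genes 3 had one (18.8%, 4.05% to 45.6%), namely *Jun* (315 and 147), *Jund* and *Relb*, and of 16 clock genes *Per1*, 2.78 kb upstream (233 and 174).

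**Figure D5:**
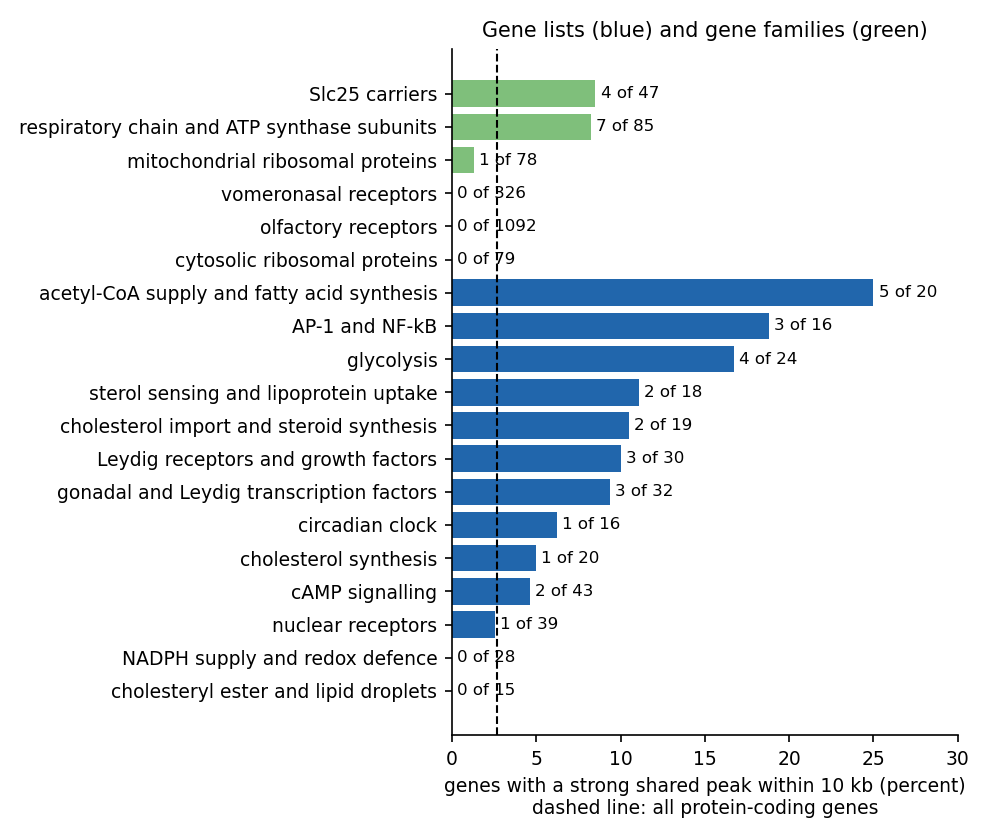
Percent of the genes of each list (blue) and of some gene families (green) with a strong shared peak within 10 kb, with the counts beside the bars and a dashed line at the 2.69% of all protein-coding genes. Acetyl-CoA supply and fatty acid synthesis has the longest bar, with 5 of 20 genes.

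Some promoter peaks were at genes for mitochondrial proteins. Of the 77 promoter peaks, 19 had as nearest gene one with a mitochondrial product, a set picked by hand after the genes had been seen, and all 19 held the consensus, as did 69 of the 77 promoter peaks (89.6%). The share of such genes among all promoters was not counted, so the 19 cannot be set against a background. Beside *Atp5b*, *Cox8a* and *Mpc1* they included *Slc25a39*, a mitochondrial carrier gene (487 and 258), *Ogdh*, the oxoglutarate dehydrogenase of the citric acid cycle (194 and 109), *Cpt1a*, which admits fatty acids to mitochondria (182 and 118), *Ppm1k*, a phosphatase of branched-chain amino acid breakdown (189 and 175), *Oat*, ornithine aminotransferase (159 and 135), *Minos1*, a subunit of the cristae organizing complex (158 and 141), and *Grpel1*, a co-chaperone of protein import (129 and 103).

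Gene families were then counted by symbol, also after the values had been seen. Of 85 subunits of the respiratory chain and ATP synthase, 7 (8.24%) had a strong shared peak within 10 kb, namely *Atp5a1*, *Atp5b*, *Atp5d*, *Atp5j*, *Cox8a*, *Ndufb5* and *Ndufb7*. Of 47 Slc25 carriers, 4 (8.51%) had one, among them *Slc25a12*, *Slc25a30* and *Slc25a39*. Of 78 mitochondrial ribosomal proteins 1 had one, *Mrpl47*, which shares its promoter region with *Ndufb5*. None of 79 cytosolic ribosomal proteins, 1092 olfactory receptors and 326 vomeronasal receptors had one. Of the other families counted in the same way, some had shares in this range. These were 2 of 19 Adamts proteases (10.5%), 3 of 47 Usp deubiquitinases (6.38%) and 2 of 38 genes with phosphatidylinositol kinase or phosphatase symbols (5.26%). The last were *Inpp4a* and *Pik3ap1*, taken by symbol and not by enzyme activity. Others were close to the background of 2.69%, with 8 of 314 other solute carriers (2.55%), 9 of 394 Zfp zinc finger genes (2.28%), 1 of 43 MAP kinase genes (2.33%) and 1 of 44 collagens (2.27%). The median gene body ranged from 3.29 kb in cytosolic ribosomal proteins to 21.5 kb in Slc25 carriers and 114 kb in Adamts proteases.

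A few genes had several strong shared peaks. *Gm20388*, an annotated gene that spans many others on chromosome 8, had 4, which lay nearest to *Slc7a5*, *Dpep1*, *Gse1* and *Urb2*. *Fkbp8*, a chaperone gene, had 3 within 10 kb, with scores of 236 and 290 in its intron 2, 172 and 131 in intron 1 of the neighbouring elongation factor gene *Ell*, and 106 and 112 in its intron 1 at the promoter of *Kxd1*. *Rbfox2*, a splicing factor gene, had 3 in introns, with scores of 106 and 213, 120 and 130, and 100 and 125. A total of 30 genes had at least 2.

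The regions whose scores differed most between the lists are given as a description, since both scores chose them. The largest ratios of cAMP to vehicle score were 3.28 in intron 1 of *Dnajc7*, a co-chaperone gene (142 and 465), 2.87 in intron 4 of *Appbp2* (200 and 574), 2.80 near *Zfp706* (126 and 352), 2.73 near *Cyp11a1* and 2.66 in intron 1 of *Ppm1h* (117 and 312). The *Appbp2* peak stood at rank 7 in the cAMP list and rank 299 in the vehicle list. The smallest were 0.307 in intron 1 of *Fez2* (330 and 101), 0.310 near *Chic2* (382 and 118), 0.316 in intron 1 of *Lrp6*, a Wnt co-receptor gene (423 and 134), 0.316 near *Bhmt* (410 and 130) and 0.319 in intron 3 of *Sh3bp5* (402 and 128). Among the largest ratios there was no copy of the consensus near *Cyp11a1* and 1 at each other region. Among the smallest there were 3 copies at *Fez2* and *Chic2* and 1 at each other region. The windows of *Dnajc7* and *Appbp2*, with large ratios, and then of *Lrp6* and *Bhmt*, with small ones, are shown as examples with a single copy.
Dnajc7 (chr11:100604772-100604831, plus strand): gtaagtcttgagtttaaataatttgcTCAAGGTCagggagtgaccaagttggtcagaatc
Appbp2 (chr11:85211331-85211390, plus strand): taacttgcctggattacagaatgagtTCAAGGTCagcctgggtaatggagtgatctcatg
Lrp6 (chr6:134556714-134556773, plus strand): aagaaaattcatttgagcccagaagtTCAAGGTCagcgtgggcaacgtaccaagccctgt
Bhmt (chr13:93648605-93648664, plus strand): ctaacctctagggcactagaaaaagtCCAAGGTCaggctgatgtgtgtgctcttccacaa

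Each of these 4 windows holds 1 copy followed by A, which is TCAAGGTC in all but that of *Bhmt*. With 1 library per condition, none of these ratios has a replicate check.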

How the data were processed

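Chromatin immunoprecipitation with an antibody to Ad4BP/SF-1 was followed by sequencing of 1 library per condition. The authors aligned reads with Bowtie, allowing up to 3 mismatches, kept only reads with a unique position, and called peaks with MACS. They deposited 1 list of peaks per condition. Bowtie 0.12.8 and FastQC 0.11.5 are named in the submitters' processing notes. Whether the input DNA served as control is not given in the sources used here. The deposited lists hold a score per peak, which the authors took from MACS and which is read here as 10 times the negative log10 of the p-value, on mm10 (GRCm38). The lowest score of 50 does not match the threshold stated for the peak calling, so which threshold made the lists is unclear. Depth is unknown, and a deeper library gives higher scores and more peaks.

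Overlaps were computed with pandas 2.3.3 and numpy 2.4.6 and checked against bedtools 2.31.1. Sequence was read from the RefSeq GRCm38.p6 genome with samtools 1.23.1 and pysam 0.24.0, genes came from GENCODE M21, and a peak was assigned to genes within 10 kb of its ends. The consensus was searched over the whole peak, other motifs in the central 300 bp, and both also in windows 2 kb to each side. Lower case letters of the genome were taken as repeat-masked, and a copy counted as masked with at least 4 of its 8 bases in lower case. Shares have exact Clopper-Pearson 95% intervals (scipy 1.17.1). The functions were tested on simulated data, and plots were drawn with matplotlib 3.10.9. With 1 library per condition no test was made. The input DNA and 1 cAMP peak on chromosome Y were left out.

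The regions and gene lists were chosen with earlier results of these data known. Genes were named by rule. They were those nearest to the 15 lowest rank sums, to the 8 lowest without the consensus, to the 5 largest and 5 smallest score ratios and to the 5 highest copy numbers, listed genes within 10 kb, and genes with at least 3 peaks. The gene families, the mitochondrial promoter genes, the regions at the threshold and on chromosome X, genes of the further families and the repeat sequence with its 29 bp pairs were added after values had been seen. Alternatives covered score minimum, overlap, motif, TSS and gene distance. Some genes that met these rules are not reported here.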

Additional observations from a re-analysis of the deposited data

How the results depend on the processing

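Alternatives were run for 5 quantities, the number of strong shared peaks, the share with the consensus, the share near a TSS, the share of genes and the number of listed genes, none of which has a direction. Of 36 alternatives 21 stayed within the interval of the reported value or within 1.5 times a count. With a score minimum of 75 in both lists there were 993 strong shared peaks in place of 587, 42 listed genes in place of 27, and 4.58% of protein-coding genes in place of 2.69%. With a minimum of 150 these were 194, 11 and 0.976%. With the same number of top-scoring peaks from each list, 927, the share of genes was 2.2%. With peaks in the gene body only it was 1.68%, and within 50 kb it was 6.36% with 43 listed genes. The share of strong shared peaks with the consensus was 85.9% when an A had to follow and 85.0% in the central 200 bp, against 92.2%. The share near a TSS was 8.52% within 500 bp, 32.5% within 5 kb and 10.1% with only the outermost 5′ end of each gene, against 13.1% within 1 kb. These alternatives change the definition, and the shifts follow from their construction. No paired analysis was possible because each condition has 1 library, and no replicate could be left out. The unknown depth of each library limits every comparison of scores.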
